A study of Mus musculus with 9 samples.

Results

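The tRNA synthetases and amino acid supply genes are a set of 35 genes chosen by symbol. They comprise 20 cytosolic aminoacyl-tRNA synthetases, 6 enzymes of serine, glycine, asparagine and one-carbon metabolism, 6 amino acid carriers, the transsulfuration enzyme Cth and the regulators Cebpb and Sesn2. All 35 were found among the 23944 gene identifiers of the deposited tables, and all 35 were among the 15834 genes with enough reads to be tested. The fewest reads of any of them in any library was 70.

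The RNA came from whole left lungs of adult wild-type mice, sequenced in 9 libraries of 3 groups. Shock grafts were C57BL/6 lungs in Balb/C recipients, whose donors had 4 h of hypovolemic shock at a mean arterial pressure of 15 ± 5 mmHg and 20 h of recovery. Those lungs were then kept for 24 h at 0 °C and reperfused in the recipient for 2 h. Cold-ischemia grafts had the same strains, storage and reperfusion without donor shock. Naive lungs were C57BL/6 lungs without surgery. Each group had 3 libraries, and the titles do not say whether a lung was 1 animal. A graft can also hold blood cells of the Balb/C host, and all grafts of either kind went through storage, surgery and reperfusion together.

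Total counts ran from 18913487 to 34986276 reads per library. Levels are given as CPM, read counts on a common scale after TMM scaling of the library sizes. The titles place 1 library in the cold-ischemia group as replicate 2 and another in the shock group as replicate 3, and the deposited tables swap these placements. Groups here follow the titles. The comparison of all 6 grafts with naive lungs uses the same libraries under either placement, although the groups set its estimate of the spread. With the tables' placement 17 of the 35 genes described were likewise higher and 1 lower there, and over all genes 3744 were higher and 3600 lower, in place of 3497 and 3123. The labels of the 3 naive libraries point to records from a different series and those of the grafts do not, so in any comparison with naive lungs a batch difference and the group difference cannot be told apart. On principal components, the first held 64.3% of the variance and parted naive lungs from grafts, and on the second shock replicate 2 stood at 62.3, against -29.6 to 11.1 for the others. Markers of lung epithelium summed to 31035 to 47368 CPM in grafts and 36798 to 46687 CPM in naive lungs. Neutrophil markers were higher in grafts for 10 of 10 genes, with a summed level of 1631 to 2984 CPM in shock grafts, 1043 to 1996 CPM in cold-ischemia grafts and 59.9 to 86.2 CPM in naive lungs. In whole tissue, more cells of a type and more RNA per cell cannot be told apart, and the part of neutrophils in the results that follow was not tested. Other marker lists also held genes that were higher or lower in grafts, as 22.1% and 19.7% of all genes were. Of 8 mesenchymal and mesothelial markers 4 were lower in grafts and 0 higher, with sums of 920 to 1506 CPM in shock grafts, 1610 to 1966 CPM in cold-ischemia grafts and 1552 to 2888 CPM in naive lungs. Of 8 T and B cell markers 1 was higher and 4, all B cell genes, were lower, of 9 monocyte and macrophage markers 4 were higher and 1 lower, and of 8 endothelial markers 1 was higher and 2 lower. The part of these cells in the results was not tested either.

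Aminoacyl-tRNA synthetases join each amino acid to its tRNA, and translation draws on the products. When amino acids run short or other stresses act, kinases phosphorylate the initiation factor eIF2 and the transcription factor ATF4 is made. ATF4, often paired with a C/EBP protein, binds the C/EBP-ATF response element and raises transcription of many synthetases, amino acid carriers and biosynthetic enzymes. This program is known as the integrated stress response.

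Of the 35 genes, 17 were higher in grafts than in naive lungs and 1, Psph, was lower (edgeR quasi-likelihood test, Benjamini-Hochberg adjusted p under 0.05 over all genes tested). Over all genes, 41.8% passed the same test, 22.1% as higher and 19.7% as lower. The median log2 fold change was 0.57 for the 35 genes, against -0.05 for all genes tested. By role, 4 of 6 carriers rose, with a median log2 fold change of 1.37 over the 6, 2 of the 3 transsulfuration and regulator genes, with a median of 1.34, 3 of 6 enzymes, with a median of 0.55, and 8 of 20 synthetases, with a median of 0.26. Differences between the roles were not tested. The synthetase median was 0.14 without shock replicate 2, 0.05 with upper-quartile scaling and -0.07 with library totals. For each of the 17 genes that rose, all 6 grafts lay above all 3 naive lungs, a separation that 20.9% of all genes showed. Farsb and Slc1a4 had all 6 grafts below all 3 naive lungs, as 20.0% of all genes did, and neither passed the test. The choice of scaling moved these counts. Upper-quartile scaling gave 14 higher and 4 lower genes of the 35, where 17.0% of all genes were higher and 31.8% lower. Library totals with no scaling factor, a setting chosen after seeing the data, gave 13 higher and 7 lower, where 14.6% of all genes were higher and 39.6% lower. The same settings moved the median of all genes to -0.25 and -0.37 and that of the 35 genes to 0.37 and 0.25. Of all calls, 52.8% were higher with TMM scaling, 34.8% with upper-quartile scaling and 26.9% with library totals.

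**Figure D1:**
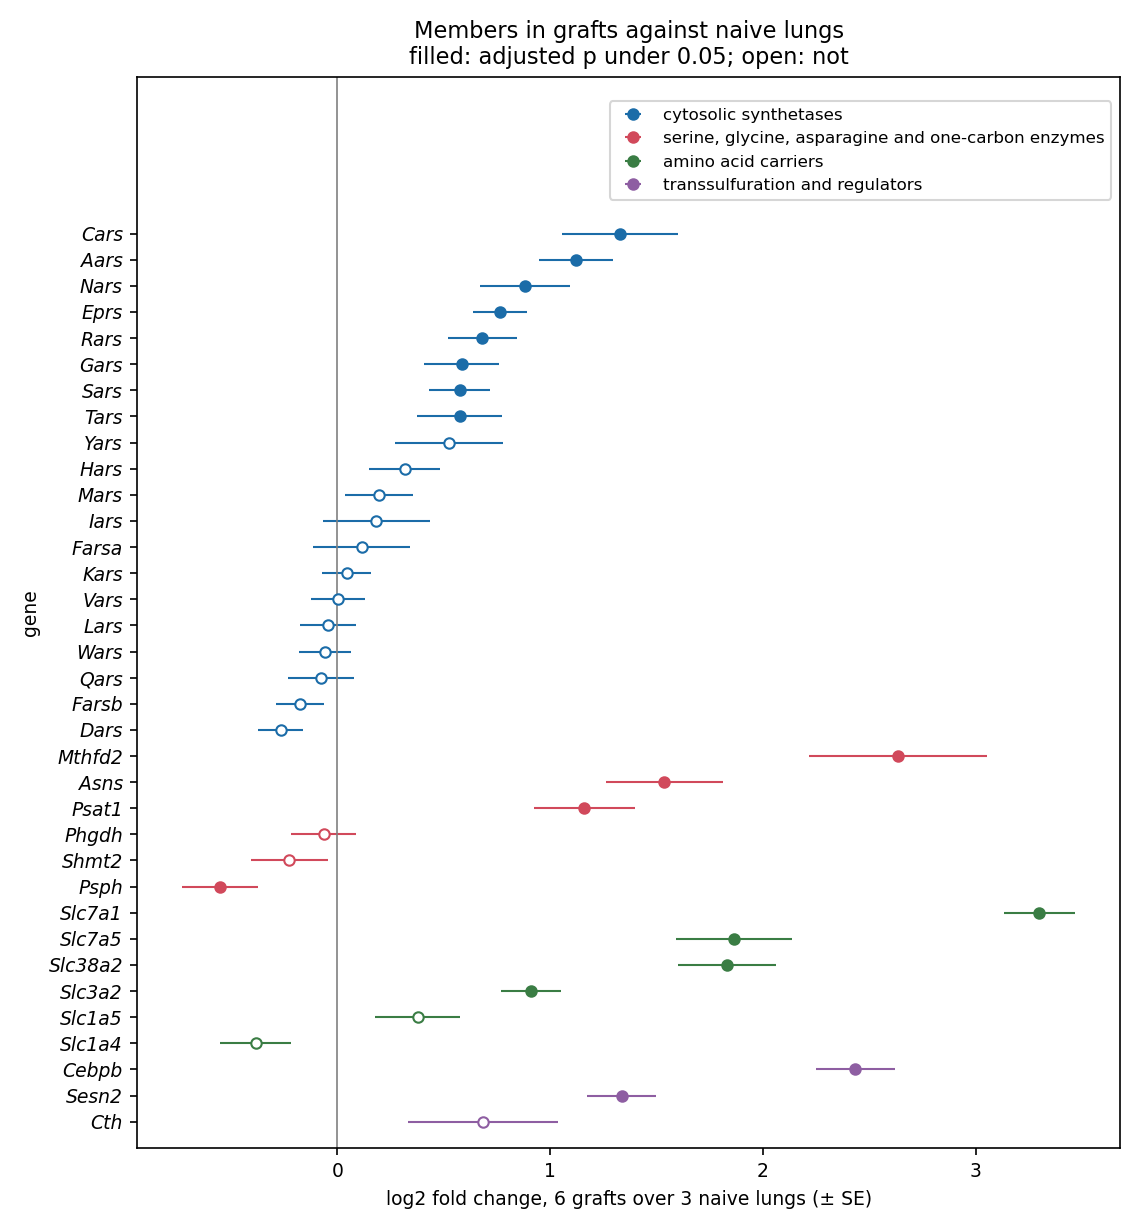
Log2 fold change of each of the 35 genes in the 6 grafts against the 3 naive lungs, with bars of 1 standard error from the fit. Filled points passed the test, and they run from -0.55 for Psph to 3.30 for Slc7a1. Open points did not pass.

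Promoters were read as a description only, with no test. RefSeq windows on GRCm38.p6, the assembly of mm10, from 250 bases before to 50 bases after the start were at hand for 24 of the 35 genes. They were searched on both strands for TGATGNAA, whose reverse complement is TTNCATCA, a core of the C/EBP-ATF response element. Psat1 and Slc7a1 had more than 1 window each, so the 24 counts genes and not windows. At least 1 match was found for 7 of the 24 genes (29.2%), Aars, Gars, Iars, Tars, Yars, Asns and Slc1a4. Of 32851 windows of the same length in the whole table, 3.97% held one, as did 2.87% of the 11381 tested genes with a window and 3.72% of the 2578 genes called higher with a window. Of the genes with a window, 4 of the 13 that rose had a match and 3 of the 11 others. Slc7a1, Mthfd2, Cebpb, Slc38a2, Sesn2 and Psat1 more than doubled without a match in these windows, and Slc3a2, Eprs and Sars rose without one there. Sequence outside the windows was not searched, so these genes may hold the element elsewhere. The 250 bases before the start of Aars and of Asns, genes that more than doubled in grafts, are shown with the match in capitals. They span chr8:111033592-111033841 on the plus strand and chr6:7693210-7693459 on the minus strand.
Aars: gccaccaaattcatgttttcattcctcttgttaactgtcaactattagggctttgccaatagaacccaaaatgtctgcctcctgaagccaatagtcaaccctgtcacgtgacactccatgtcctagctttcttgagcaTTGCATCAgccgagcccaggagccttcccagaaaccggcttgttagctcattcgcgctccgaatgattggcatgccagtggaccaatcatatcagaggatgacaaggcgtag
Asns: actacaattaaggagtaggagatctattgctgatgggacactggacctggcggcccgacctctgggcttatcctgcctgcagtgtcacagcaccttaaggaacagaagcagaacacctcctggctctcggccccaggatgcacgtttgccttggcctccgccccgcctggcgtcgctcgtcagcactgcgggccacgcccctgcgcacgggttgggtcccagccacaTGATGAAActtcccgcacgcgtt

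The first base of the match stood at -112 for Aars and -23 for Asns, counted from the RefSeq start of transcription, and Aars had a further match at 10. For Aars this start lies 698 bases inside the deposited gene, so the bases shown for it do too. The RefSeq starts also lay far from the deposited gene starts for Psat1 (22278 and 22715 bases), Slc3a2 (9472) and a second window of Slc7a1 (7089). The matches of the other 5 genes are shown with 11 bases on either side, to set genes that rose (Gars, Tars) beside genes that did not pass (Yars, Iars, Slc1a4). They lie at chr6:55037960-55037989 (plus strand), chr15:11399655-11399684 (minus), chr4:129189895-129189924 (plus), chr13:49682126-49682155 (plus) and chr11:20332699-20332728 (minus).
Gars: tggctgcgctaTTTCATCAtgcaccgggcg
Tars: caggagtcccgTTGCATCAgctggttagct
Yars: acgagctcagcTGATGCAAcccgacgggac
Iars: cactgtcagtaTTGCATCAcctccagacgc
Slc1a4: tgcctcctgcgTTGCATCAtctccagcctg

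The letters TTGCATCA stood near the start of Tars, which rose, and of Iars and Slc1a4, which did not pass the test. No window was at hand for Cars, Hars, Lars, Mars, Nars, Rars, Vars, Wars, Slc7a5, Slc1a5 and Cth.

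Among the cytosolic synthetases, Cars and Aars changed most. Aars (chr8:111033144-111057664), which charges tRNA with alanine, had 166, 244 and 143 CPM in shock grafts, 175, 172 and 162 CPM in cold-ischemia grafts, and 70.8, 81.7 and 91.1 CPM in naive lungs. Every graft stood above every naive lung, and shock replicate 2 was the highest. The log2 fold change of grafts over naive lungs was 1.12 ± 0.17 (SE), with an edgeR adjusted p of 5.2e-04. Aars shares 1326 exon bases with Exosc6 on the same strand, and reads there cannot be assigned with certainty.

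Cars (chr7:143557230-143600090), the cysteine enzyme, had 53.7, 93.2 and 41.6 CPM in shock grafts, 42.9, 43.9 and 27.7 CPM in cold-ischemia grafts, and 17.1, 16.9 and 24.4 CPM in naive lungs. The groups did not overlap, but the lowest graft was only slightly above the highest naive lung. Its log2 fold change was 1.33 ± 0.27, with an adjusted p of 0.0028. Against naive lungs it was 1.69 ± 0.30 in shock grafts (adjusted p = 0.0015) and 0.97 ± 0.30 in cold-ischemia grafts (adjusted p = 0.031), and the call in cold-ischemia grafts was lost with upper-quartile scaling (0.0555), with library totals (0.0861), without both disputed libraries (0.0563), without cold-ischemia replicate 1 or 2 and without naive replicate 1 or 2 (0.0932 to 0.109).

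Another 6 synthetases rose by less. Nars, for asparagine, averaged 149 ± 48.7 CPM in grafts and 80.3 ± 3.80 CPM in naive lungs (SD, n = 6 and 3), a log2 fold change of 0.88. Eprs, which carries the activities for glutamate and proline in 1 protein, averaged 165 ± 17.7 CPM in grafts and 97.0 ± 6.24 CPM in naive lungs, a log2 fold change of 0.76. Rars, for arginine, averaged 51.6 ± 10.1 CPM in grafts and 32.0 ± 4.54 CPM in naive lungs, a log2 fold change of 0.68. Their edgeR adjusted p-values were 0.0068, 7.9e-04 and 0.0068, and the grafts of each lay above the naive lungs. Gars, Sars and Tars, for glycine, serine and threonine, had log2 fold changes of 0.58, 0.57 and 0.57 with adjusted p-values of 0.021, 0.0090 and 0.041. Those 3 calls were lost with upper-quartile scaling (adjusted p 0.083, 0.0542 and 0.131), and with library totals Rars was lost as well. Gars also lost its call without naive replicate 1 or 2, and Tars without any 1 of the cold-ischemia replicates or without naive replicate 1 or 2.

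The other 12 synthetases did not pass the test, and their log2 fold changes ran from -0.27 for Dars to 0.53 for Yars. Yars, for tyrosine, had 39.1, 81.6 and 32.0 CPM in shock grafts, 42.1, 38.4 and 37.3 CPM in cold-ischemia grafts, and 29.1, 30.2 and 33.8 CPM in naive lungs, with an adjusted p of 0.12. The 1 high graft was again shock replicate 2, while the 5 other grafts lay between 32.0 and 42.1 CPM, and the groups overlapped. Yars was called without both disputed libraries (0.66, adjusted p = 0.0462) and without shock replicate 3 (0.65, adjusted p = 0.0292). Wars, for tryptophan, averaged 135 ± 15.9 CPM in grafts and 141 ± 3.74 CPM in naive lungs. Kars, for lysine, averaged 66.1 ± 5.94 CPM in grafts and 64.2 ± 4.21 CPM in naive lungs. The log2 fold changes were -0.06 ± 0.12 for Wars and 0.04 ± 0.12 for Kars. Hars, Mars, Iars, Farsa, Vars, Lars, Qars and Farsb lay between 0.32 and -0.18, where the sign of Farsa, Iars, Kars, Mars and Vars turned with upper-quartile scaling and also that of Hars with library totals. Dars, for aspartate, averaged 38.8 ± 1.33 CPM in shock grafts, 44.1 ± 3.38 CPM in cold-ischemia grafts and 49.7 ± 3.46 CPM in naive lungs. It fell in shock grafts against naive lungs, with a log2 fold change of -0.36 ± 0.12 and an adjusted p of 0.041, but 13 of 18 alternatives did not call it there, at 0.0516 to 0.144. With upper-quartile scaling 5 synthetases were higher and 2 (Dars and Farsb) lower in grafts, and with library totals 4 were higher and 4 (Dars, Farsb, Lars and Wars) lower.

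**Figure D2:**
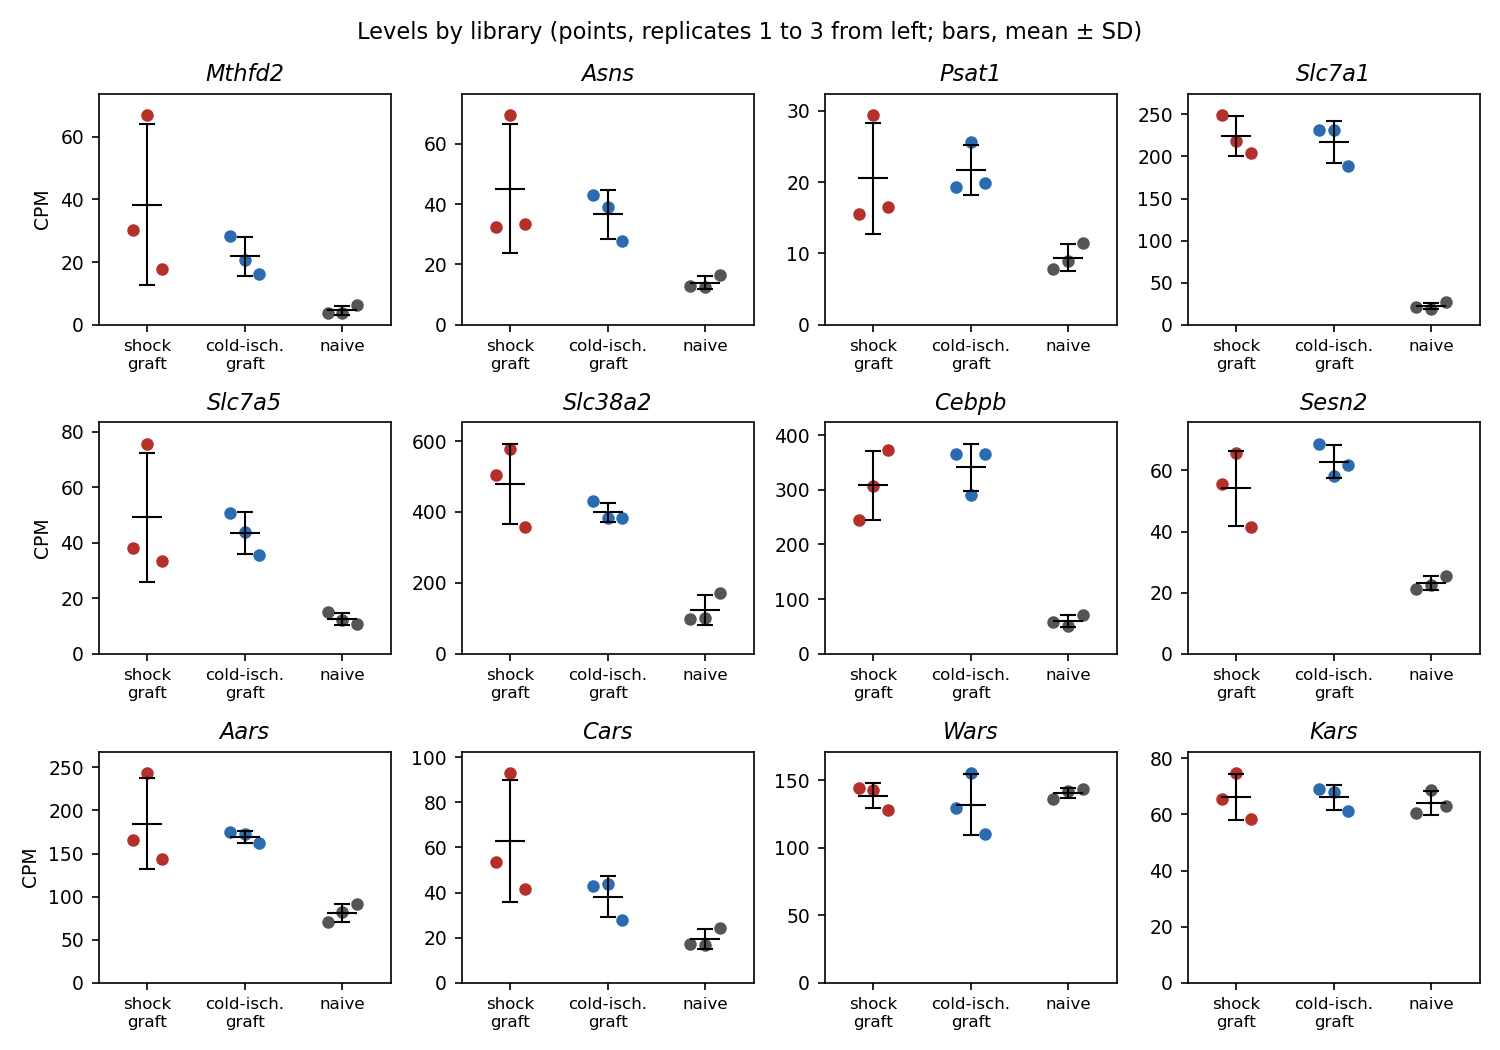
CPM of 12 genes in each library, with replicates 1 to 3 from left to right and black bars for the mean ± SD of 3 libraries. The 10 genes that passed the test with a log2 fold change of at least 1 have all grafts above all naive lungs, and Wars and Kars, shown for contrast, overlap.

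Several cytosolic synthetases sit together in a multi-synthetase complex. This grouping was made after the values were seen and has no test. Of its 8 synthetase members here (Dars, Eprs, Iars, Kars, Lars, Mars, Qars and Rars), 2 rose, with a median log2 fold change of 0.11. Of the 12 outside it, 6 rose, with a median of 0.55. Over all genes 22.1% were higher, and the difference between these groups of genes was not tested. The scaffold genes Aimp1, Aimp2 and Eef1e1 had log2 fold changes of -0.09 ± 0.12, -0.03 ± 0.27 and 0.49 ± 0.30, and none of the 3 passed edgeR's test, an unadjusted p under 0.05 or the test of DESeq2.

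Mitochondria use a separate set of synthetases encoded in the nucleus, although Gars and Kars serve both compartments. Of 19 genes of the mitochondrial set that were tested, 9 fell in grafts and 0 rose, with a median log2 fold change of -0.55 (0 rose at an unadjusted p under 0.05 or with DESeq2, which gave 9 lower). Over all genes 19.7% were lower. With DESeq2 size factors 9 of the 19 fell, where 18.6% of all genes were lower, with upper-quartile scaling 11, where 31.8% were, and with library totals 13, where 39.6% were, with 0 of the 19 higher in each. The largest falls were those of Pars2, for proline (-1.23 ± 0.27), Hars2, for histidine (-1.09 ± 0.13), Aars2, for alanine (-0.87 ± 0.16), and Gatc, a subunit of the enzyme that makes glutaminyl-tRNA in mitochondria (-0.83 ± 0.16). Hars2 had 9.33, 9.37 and 9.62 CPM in shock grafts, 8.39, 7.46 and 9.46 CPM in cold-ischemia grafts, and 19.7, 17.2 and 20.3 CPM in naive lungs, so the grafts lay far below. Hars2 and Hars share 195 exon bases on opposite strands, and without strand information reads there may not be parted.

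For 14 amino acids 1 cytosolic gene and 1 mitochondrial gene of matching symbol were both tested. In 13 of the 14 pairs, drawn up after the values were seen, the cytosolic gene had the higher log2 fold change, and the median difference was 0.60. The smallest of these 13 differences were 0.075 for Mars, 0.145 for Wars and 0.237 for Yars. Each was under the standard error of its mitochondrial gene (0.279, 0.199 and 0.254). No difference within a pair was tested. In 3 pairs, those for alanine, arginine and threonine, the cytosolic gene rose and the mitochondrial gene fell. For alanine the pair stood at 1.12 for Aars and -0.87 for Aars2, for arginine at 0.68 for Rars and -0.59 for Rars2, and for threonine at 0.57 for Tars and -0.73 for Tars2. The rise of Tars, and that of Rars with library totals, rested on the scaling as given above. The exception among the pairs was leucine, with -0.04 ± 0.13 for Lars and 0.54 ± 0.49 for Lars2. Amino acids without such a pair were left out of this count. For phenylalanine, where 2 genes encode the cytosolic enzyme, Farsa stood at 0.11, Farsb at -0.18 and the mitochondrial Fars2 at 0.12 ± 0.14. Eprs, at 0.76, stands beside Ears2 for glutamate (-0.58 ± 0.25) and Pars2 for proline.

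**Figure D3:**
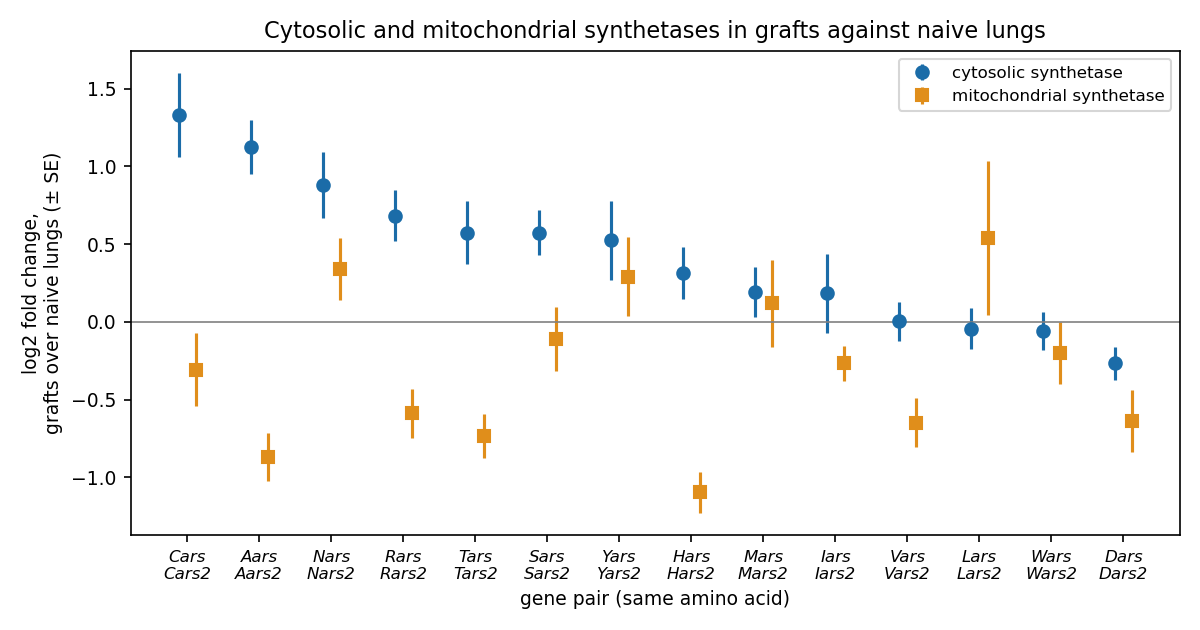
Log2 fold change in grafts against naive lungs for 14 pairs of a cytosolic synthetase (circles) and its mitochondrial counterpart (squares), with bars of 1 standard error. The circle lies above the square in 13 pairs, and the leucine pair is the exception among these 14.

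The enzymes of amino acid synthesis moved in both directions. Asns (chr6:7675169-7693254), which makes asparagine from aspartate and glutamine, had 32.3, 69.8 and 33.4 CPM in shock grafts, 43.2, 39.1 and 27.7 CPM in cold-ischemia grafts, and 12.9, 12.6 and 16.5 CPM in naive lungs. The groups were apart, with shock replicate 2 far above the 5 other grafts. The log2 fold change was 1.54 ± 0.27 and the edgeR adjusted p 0.0012. Its product is the amino acid that Nars uses, and both genes rose.

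Serine is made from a glycolytic intermediate by Phgdh, Psat1 and Psph, in that order, and these 3 genes did not move together. Psat1 (chr19:15904678-15947337), the transaminase of the middle step, had 15.5, 29.5 and 16.6 CPM in shock grafts, 19.4, 25.7 and 19.9 CPM in cold-ischemia grafts, and 7.75, 9.0 and 11.5 CPM in naive lungs. All grafts were higher than all naive lungs, and the log2 fold change was 1.16 ± 0.24 with an adjusted p of 0.0028. Phgdh, the dehydrogenase of the first step, averaged 10.6 ± 1.08 CPM in grafts and 11.1 ± 1.36 CPM in naive lungs, a log2 fold change of -0.06 ± 0.15. Psph, the phosphatase of the last step, had 4.48, 3.59 and 4.56 CPM in shock grafts, 6.21, 4.92 and 5.17 CPM in cold-ischemia grafts, and 7.24, 5.84 and 7.92 CPM in naive lungs. Cold-ischemia replicate 1 overlapped with the naive lungs, and Psph fell by 0.55 ± 0.18 on the log2 scale with an adjusted p of 0.030. That call was lost without both libraries of disputed placement (0.0561) and without cold-ischemia replicate 2 or 3 or naive replicate 1 or 3, at 0.0511 to 0.128. Psph shares 452 exon bases with Cct6a on the opposite strand.

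Serine feeds one-carbon units into folate in mitochondria through Shmt2 and Mthfd2. Mthfd2 (chr6:83305691-83317606), the mitochondrial folate dehydrogenase and cyclohydrolase, had 30.3, 67.1 and 17.7 CPM in shock grafts, 28.4, 20.6 and 16.3 CPM in cold-ischemia grafts, and 3.78, 3.80 and 6.27 CPM in naive lungs. Grafts and naive lungs were widely apart, and the highest graft was 4.10 times the lowest, the widest spread among grafts of the 35 genes. The log2 fold change was 2.64 ± 0.42 with an adjusted p of 6.2e-04, the largest rise among the enzymes. Shmt2, which splits serine to glycine, averaged 16.4 ± 3.39 CPM in grafts and 19.1 ± 3.40 CPM in naive lungs, a log2 fold change of -0.23 ± 0.18 that did not pass the test.

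Of the carriers of amino acids across the plasma membrane, 4 of 6 rose. Slc7a1 (chr5:148327410-148399904), a carrier of arginine and lysine, had 249.9, 218 and 204 CPM in shock grafts, 232, 232 and 189 CPM in cold-ischemia grafts, and 21.5, 18.9 and 26.8 CPM in naive lungs. Its 6 grafts lay between 189 and 249.9 CPM and averaged 9.86 times the naive mean. The log2 fold change of 3.30 ± 0.17, with an adjusted p of 5.4e-07, was the largest of the 35 genes. Slc38a2 (chr15:96687394-96699698), a sodium-coupled carrier of small neutral amino acids such as glutamine and alanine, had 505, 578 and 356 CPM in shock grafts, 430.2, 384 and 382 CPM in cold-ischemia grafts, and 97.7, 99.6 and 172 CPM in naive lungs. The lowest graft was about double naive replicate 3, the highest naive lung. The log2 fold change was 1.83 ± 0.23 with an adjusted p of 1.3e-04.

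Slc7a5 (chr8:121881150-121907694) exchanges large neutral amino acids such as leucine and works as a pair with Slc3a2, the heavy chain that brings it to the membrane. Slc7a5 had 38.1, 75.7 and 33.6 CPM in shock grafts, 50.7, 43.9 and 35.5 CPM in cold-ischemia grafts, and 15.0, 12.1 and 10.8 CPM in naive lungs. All grafts were above all naive lungs, and the log2 fold change was 1.87 ± 0.27 with an adjusted p of 3.5e-04. Slc3a2 had 312, 417 and 324 CPM in shock grafts, 368, 310.1 and 361 CPM in cold-ischemia grafts, and 206, 177 and 172 CPM in naive lungs. Its groups were also apart, and the log2 fold change was 0.91 ± 0.14 with an adjusted p of 5.1e-04. Of 5 light chains that pair with Slc3a2, a grouping made after the values were seen, 4 rose (Slc7a5, Slc7a6, Slc7a8 and Slc7a11), and Slc7a7 had a log2 fold change of -0.32 ± 0.15 with an adjusted p of 0.11.

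The 2 related carriers of alanine, serine and cysteine did not pass the test. Slc1a5, which also carries glutamine, averaged 135 ± 22.5 CPM in grafts and 104 ± 28.3 CPM in naive lungs, a log2 fold change of 0.38 ± 0.20. Slc1a4 averaged 18.0 ± 3.03 CPM in grafts and 23.5 ± 3.27 CPM in naive lungs, a log2 fold change of -0.38 ± 0.17 with an adjusted p of 0.091, and was called lower with upper-quartile scaling (0.0144) and with library totals (0.00554).

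Cebpb (chr2:167688915-167690418), a transcription factor of the C/EBP family, had 245, 306 and 372 CPM in shock grafts, 366, 291 and 366 CPM in cold-ischemia grafts, and 58.2, 50.7 and 71.0 CPM in naive lungs. Every graft was far above every naive lung, and the log2 fold change was 2.43 ± 0.19 with an adjusted p of 5.6e-06. Cebpb is known for its high expression in myeloid cells, and the part of such cells in its values was not tested. Cebpb shares 312 exon bases with Tmem189 on the opposite strand. Sesn2 (chr4:132492032-132510501), a leucine sensor that holds mTORC1 in check, had 55.4, 65.8 and 41.4 CPM in shock grafts, 68.8, 58.1 and 61.8 CPM in cold-ischemia grafts, and 21.2, 22.7 and 25.5 CPM in naive lungs. The groups were apart, with a log2 fold change of 1.34 ± 0.16 and an adjusted p of 1.0e-04. Cth, which makes cysteine from cystathionine, had 12.1, 14.5 and 6.19 CPM in shock grafts, 9.43, 7.75 and 5.68 CPM in cold-ischemia grafts, and 4.98, 3.17 and 8.78 CPM in naive lungs. Its groups overlapped, and the log2 fold change of 0.68 ± 0.35 did not pass the test (adjusted p = 0.14), although it did without naive replicate 3 (1.16, adjusted p = 0.036).

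Levels of different genes were compared by the deposited FPKM, which divides by gene length. In grafts Cebpb stood at 201 ± 34.6 FPKM, Slc3a2 at 115 ± 13.6, Slc38a2 at 87.9 ± 15.7 and Nars at 52.4 ± 16.5 FPKM (SD, n = 6). At the low end in grafts were Psph at 1.56 ± 0.28 and Slc1a4 at 4.27 ± 0.76 FPKM. In naive lungs Slc3a2 stood at 76.5 ± 9.03, Wars at 56.7 ± 0.98, Cebpb at 46.2 ± 6.98 and Slc1a5 at 43.0 ± 12.5 FPKM (SD, n = 3). The ranges of mean ± SD overlapped for Slc3a2 and Slc38a2 in grafts and for Cebpb and Slc1a5 in naive lungs, while Cebpb in grafts, and Slc3a2 and Wars in naive lungs, stood clear of the next gene. Mthfd2, Psph, Cth and Slc7a1 were lowest in naive lungs, at 2.56 ± 0.73, 2.82 ± 0.39, 3.58 ± 1.74 and 3.61 ± 0.58 FPKM, and these ranges overlapped. In grafts Slc7a1 stood at 28.5 ± 2.31 FPKM, within the range of the synthetases.

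Both kinds of graft were also set against the naive lungs separately. These comparisons share the 3 naive lungs, so their values are given side by side only. In shock grafts 17 of the 35 genes were higher and 2, Psph and Dars, were lower (Psph was not called there in 3 of 18 alternatives, at 0.0506 to 0.0697), where 22.0% of all genes were higher, 17.9% lower and 39.9% either. In cold-ischemia grafts 15 were higher and 0 lower (edgeR; 0 lower at an unadjusted p under 0.05 and with DESeq2), where 17.5% of all genes were higher, 13.1% lower and 30.6% either. The median log2 fold change of the 35 genes was 0.71 in shock grafts and 0.40 in cold-ischemia grafts, against -0.06 and -0.04 for all genes. The 15 genes higher in cold-ischemia grafts were all among the 17 higher in shock grafts, and the 2 others were Gars and Tars. Slc7a1 stood at 3.32 ± 0.18 in shock grafts and 3.28 ± 0.18 in cold-ischemia grafts, and Mthfd2 at 3.04 ± 0.46 and 2.23 ± 0.45. In the authors' deposited table, which places the 2 disputed libraries the other way round, 19 genes were higher and 1 lower in shock grafts, where 37.3% of genes passed. In the authors' deposited table for cold-ischemia grafts 18 were higher and 0 lower, where 36.2% of genes passed.

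The comparison of shock grafts with cold-ischemia grafts asks what donor shock added to storage and reperfusion. None of the 35 genes passed edgeR's test, and 0.0% of all genes did, with 1 of the 35 and 1152 of 15834 genes at an unadjusted p under 0.05. DESeq2 called 8 genes, none of them of the 35. The log2 difference between shock and cold-ischemia grafts ran from -0.37 ± 0.21 for Psph to 0.81 ± 0.42 for Mthfd2, with a median of 0.12. The smallest adjusted p was 0.671, for Mthfd2 and Cars, and Cars differed by 0.72 ± 0.30. For Slc7a1, Slc3a2 and Eprs the differences were 0.04 ± 0.16, 0.02 ± 0.16 and 0.01 ± 0.14, which bounds them more closely than those of Mthfd2 or Cars. Without shock replicate 2 the median of the 35 differences was -0.08.

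With the placement of the deposited tables, 124 genes (0.783%) passed between shock and cold-ischemia grafts, and still 0 of the 35, of which 4 had an unadjusted p under 0.05. The smallest adjusted p among the 35 was then 0.184, for Cars at 0.77 ± 0.28. Without both disputed libraries 39 genes passed (9 higher and 30 lower in shock grafts) and 0 of the 35, with the smallest adjusted p again that of Cars, at 0.141. The authors' deposited table of this comparison calls 3.1% of genes and none of the 35, with the smallest adjusted p at 0.159 for Cars.

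Among the 6 grafts, shock replicate 2 was the highest for 25 of the 35 genes, including 16 of 20 synthetases and 13 of the 17 genes that rose. Over all genes tested it was the highest for 26.9%. This count was made after the values were seen and has no test. The 20 synthetases summed to 1987 CPM in that library, 1319 to 1444 CPM in the 5 other grafts and 1054 to 1126 CPM in naive lungs. It stood at 2.96 times the mean of the 5 other grafts for Mthfd2, 2.22 times for Cars, 2.16 times for Yars and 2.15 times for Iars. Slc7a1 at 0.987 times and Cebpb at 0.934 times did not share this. The endothelial markers of that library summed to 2824 CPM, against 4311 to 4799 CPM in the 5 other grafts, and its neutrophil markers had the highest sum, 2984 CPM, and the part of either in these values was not tested. Without that library 17 of the 35 genes were higher and 1 lower in grafts than in naive lungs, and their median log2 fold change was 0.42. Over all genes 3634 were then higher and 3381 lower, in place of 3497 and 3123.

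**Figure D4:**
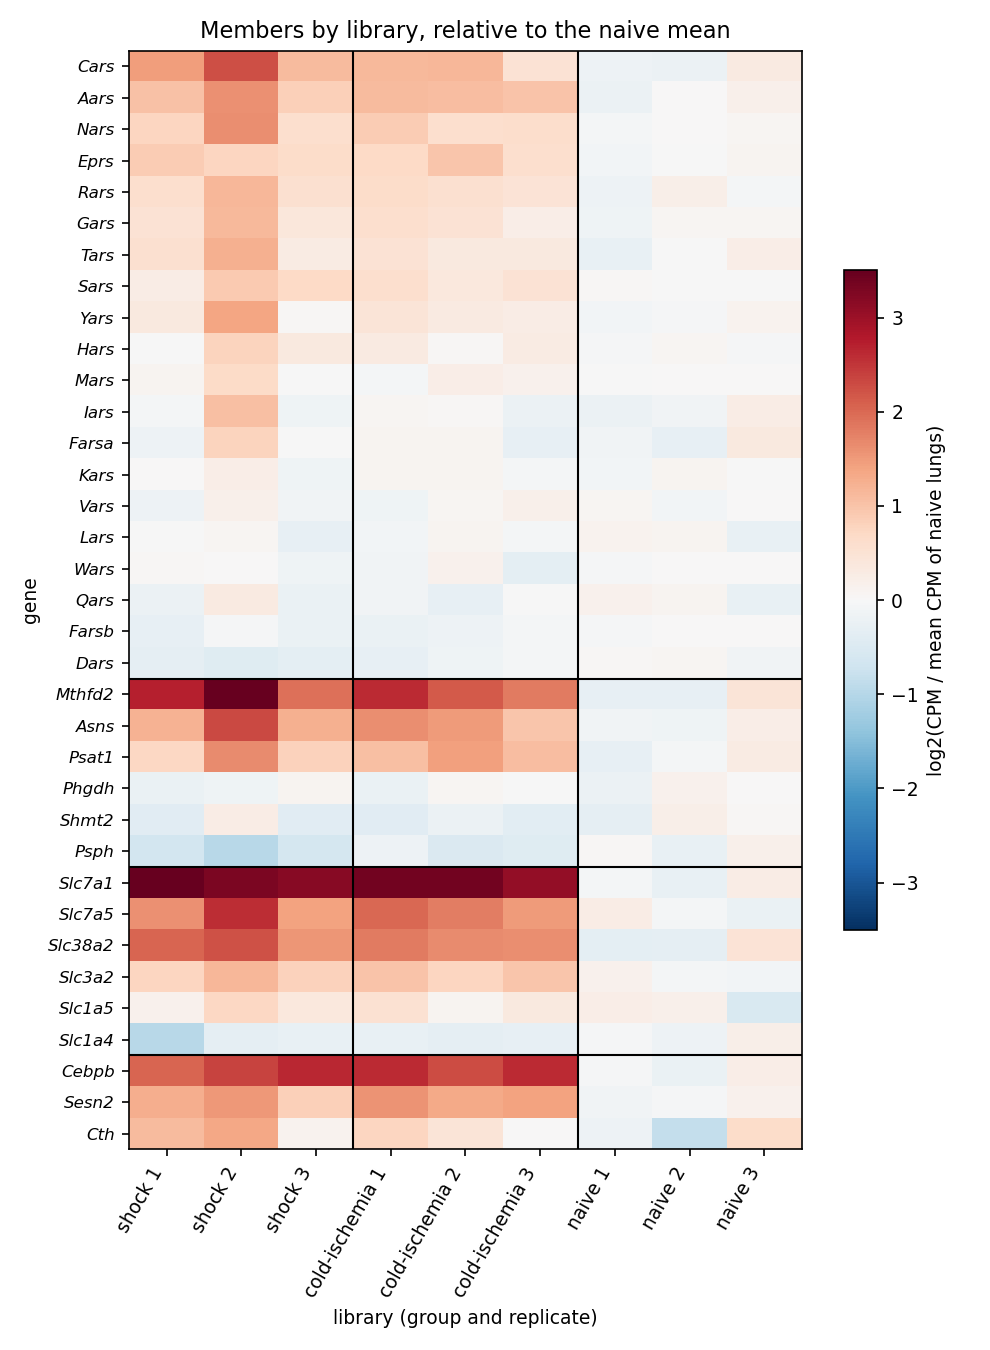
Log2 ratio of CPM in each library to the mean of the naive lungs for the 35 genes, grouped by role and sorted by fold change within a role. Red is higher and blue lower than the naive mean, and the column of shock replicate 2 is the darkest red for most synthetases.

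Other genes of the same pathways were taken from lists. Of 19 genes of the integrated stress response, 14 rose and 2 fell in grafts, where 22.1% of all genes were higher and 19.7% lower, with a median log2 fold change of 0.80. The largest rises were those of Atf3 (5.59 ± 0.42), a stress-induced transcription factor, Gdf15 (5.43 ± 0.58), a secreted stress hormone, Ppp1r15a (2.79 ± 0.21), which directs dephosphorylation of eIF2, and Chac1 (2.34 ± 0.34), which degrades glutathione. Atf4, named for its role in the pathway, had 542, 636 and 457 CPM in shock grafts, 566, 407 and 469 CPM in cold-ischemia grafts, and 116, 101 and 127 CPM in naive lungs. All grafts were above all naive lungs, with a log2 fold change of 2.16 ± 0.17 and an adjusted p of 7.1e-06. The genes that fell were Vldlr (-0.70 ± 0.22), a lipoprotein receptor, and Eif2ak3 (-0.49 ± 0.12), the eIF2 kinase of the endoplasmic reticulum, both named after their values were seen. With upper-quartile scaling 10 of the list rose and 2 fell, where 17.0% of all genes were higher and 31.8% lower. With library totals 9 rose and 2 fell, where 14.6% of all genes were higher and 39.6% lower.

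Of 19 other amino acid carriers, 9 rose and 3 fell, with a median log2 fold change of 0.47. Over all genes 22.1% were higher and 19.7% lower. With upper-quartile scaling 7 rose and 4 fell, where 17.0% of all genes were higher and 31.8% lower. With library totals 7 rose and 4 fell, where 14.6% of all genes were higher and 39.6% lower. Slc7a11, the cystine and glutamate exchanger, had 162, 239 and 184 CPM in shock grafts, 264, 179 and 143 CPM in cold-ischemia grafts, and 2.32, 1.63 and 1.39 CPM in naive lungs. The log2 fold change of 6.77 ± 0.32, with an adjusted p of 4.4e-07, exceeded that of every carrier among the 35. Slc6a14, a broad carrier of neutral and cationic amino acids, stood at 2.29 ± 0.24, Slc38a4 at 1.70 ± 0.42 and Slc7a6, a light chain of Slc3a2, at 1.64 ± 0.22. Those that fell were Slc43a1 (-1.05), Slc38a7 (-0.85) and Slc36a1 (-0.81), carriers of neutral amino acids of which Slc38a7 and Slc36a1 are known from lysosomes.

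Of 11 genes of amino acid sensing by mTORC1, 5 fell and 0 rose (2 rose at an unadjusted p under 0.05, 0 with DESeq2), with a median log2 fold change of -0.57. Over all genes 19.7% fell. The falls were those of Slc38a9, the lysosomal arginine sensor (-1.20 ± 0.14), Sesn1 (-0.985 ± 0.30), Nprl2 (-0.985 ± 0.22) and Nprl3 (-0.89 ± 0.17), subunits of the GATOR1 brake on mTORC1, and Gatsl2 (-0.62 ± 0.19), a gene of the CASTOR family that acts upstream of GATOR1. The fall of Sesn1 stands beside the rise of its paralog Sesn2. Sesn1 had 14.2, 13.2 and 32.3 CPM in shock grafts, 21.4, 14.3 and 32.8 CPM in cold-ischemia grafts, and 42.3, 40.5 and 43.8 CPM in naive lungs, with all grafts below all naive lungs. With upper-quartile scaling 5 of the 11 genes fell, where 31.8% of all genes were lower. With library totals 7 fell, where 39.6% of all genes were lower, and 0 rose with either scaling. Without shock replicate 2, 5 of the 11 fell and 1 rose.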

How the data were processed

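RNA was measured in 9 whole left lungs, 3 shock grafts, 3 cold-ischemia grafts and 3 naive lungs. Each library took 1 µg of total RNA (NEBNext Ultra II) and was read as pairs of 150 bp on a NovaSeq, per the labels' protocols. Whether strand was kept is not stated there. The submitters' processing notes name mm10 and the tools STAR, STAR-Fusion, HTSeq, edgeR and DESeq2. Roles and versions of these tools were not given in the sources used here.

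The authors deposited 3 tables of 6 libraries, 1 for each pair of groups. Read counts per gene are whole numbers without normalization, per the file headers, and 0 of 202656 values that 2 tables repeat differed. The deposited normalized signal, the count over 1 size factor per library, was used only to check its unit. The deposited FPKM served to compare levels between genes. The log2 fold changes and p-values that the authors deposited rest on their own normalization.

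Counts were scaled by TMM (factors of 0.900 to 0.965 in grafts and 1.13 to 1.18 in naive lungs) and filtered with filterByExpr. A mean per group was fitted to the 9 libraries together with edgeR 4.0.16 (R 4.3.3) and tested two-sided by quasi-likelihood. Grafts against naive lungs is the mean of both graft groups minus the naive mean. A gene was called where its p, adjusted by Benjamini-Hochberg over the 15834 genes tested, was under 0.05. The test was tested on simulated data. A log2 fold change is given ± its standard error. Replicates are separate samples per the titles, which do not name animals, so p-values measure the spread between these samples, which may be technical. The lowest chi-square per degree of freedom between replicates was 15, so no library repeated another.

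The 35 genes and the other lists were chosen with earlier results of these data known. Values per library are given for genes called in grafts against naive lungs with an absolute log2 fold change of at least 1, and for each other list the 4 called genes with the largest absolute log2 fold changes are named. Genes given in full or named beyond these rules were chosen after their values were seen. Alternatives were DESeq2 1.42.0, other scalings, no filter, a replicate block, the other placement of the 2 disputed libraries, fits of 6 libraries and leaving out each library. GENCODE release M21 gave the exon overlaps and RefSeq the promoter windows. Gene coordinates are those of the deposited tables. Some genes of the other lists are not reported here.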

Additional observations from a re-analysis of the deposited data

How the results depend on the processing

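Each of the 35 genes had at least 70 reads in every library, and each group had 3 libraries. Of the 17 genes higher in grafts than in naive lungs, 13 kept the call under all 17 alternatives, and the others (Gars, Rars, Sars and Tars) lost it under some. The number higher ran from 13 with library totals to 18, and leave-one-out fits gave 15 to 18 higher and 0 to 1 lower. Over all genes the leave-one-out fits called 2717 to 3634 higher and 2086 to 3498 lower.

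The replicate numbers do not pair the samples: the 9 correlations between same-numbered samples of different groups ran from -0.394 to 0.096, and 1 of 9 libraries correlated best with its own number. A fit with the replicate block gave 16 genes higher and 1 lower in grafts, with Tars lost (adjusted p 0.061), 13 and 0 in cold-ischemia grafts and 17 and 1 in shock grafts.

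With upper-quartile scaling 4 of the 35 genes were lower in grafts, 4 in shock grafts and 0 in cold-ischemia grafts, and genes called lower numbered 5029, 4661 and 3371. With library totals, a setting chosen after seeing the data, 7, 6 and 6 of the 35 were lower, genes called lower numbered 6267, 5761 and 4577, and 2308 genes were higher in grafts. Without both disputed libraries 0 of the 35 were lower in grafts. In shock grafts 1 of the 35 was lower, in place of 2 (Dars lost its call), with DESeq2 size factors, no filter, DESeq2, the other placement, without both disputed libraries and in the fit of 6 libraries. Leave-one-out fits gave 0 to 2 of the 35 lower in shock grafts, with 1869 to 3112 genes lower there and 1288 to 2568 lower in cold-ischemia grafts. Between shock and cold-ischemia grafts DESeq2 called 7 genes higher and 1 lower, the fit with the other placement called 36 higher and 88 lower, and the fit without both disputed libraries 9 higher and 30 lower. The cause of these shifts was not tested.

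Signs turned only for genes that did not pass the test in grafts against naive lungs. The log2 fold changes with upper-quartile scaling were -0.084 for Farsa, -0.017 for Iars, -0.16 for Kars, -0.008 for Mars and -0.197 for Vars. With library totals they were -0.205 for Farsa, -0.005 for Hars, -0.137 for Iars, -0.28 for Kars, -0.127 for Mars and -0.316 for Vars. Vars stood at -0.011 without the filter and at -0.004 with the replicate block, and Qars at 0.007 without both disputed libraries. Leave-one-out values ran from -0.062 to 0.318 for Farsa, -0.064 to 0.341 for Iars, -0.007 to 0.095 for Kars, -0.158 to 0.017 for Lars, -0.055 to 0.05 for Vars and -0.165 to 0.02 for Phgdh.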

Other observations

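Of 21 other enzymes of amino acid and one-carbon metabolism that were tested, 3 rose and 2 fell in grafts against naive lungs. Their median log2 fold change was 0.04, and over all genes 22.1% were higher and 19.7% lower. Got1, the cytosolic aspartate transaminase, and Glul, glutamine synthetase, were among those that rose. Their log2 fold changes were 0.98 ± 0.23 and 0.75 ± 0.12 (edgeR adjusted p of 0.0062 and 7.1e-04). Glul had 744 to 864 CPM in shock grafts, 785 to 848 CPM in cold-ischemia grafts and 446 to 513 CPM in naive lungs, so the groups did not overlap. Bcat2, the mitochondrial branched-chain transaminase, fell by 0.37 ± 0.13 on the log2 scale (adjusted p = 0.044), and it lost its call with DESeq2 size factors (adjusted p 0.06), DESeq2 (0.063), the replicate block (0.0581) and without both disputed libraries (0.072).

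Lars2, the mitochondrial leucine synthetase, had 1088, 1518 and 707 CPM in shock grafts, 1244, 417 and 442 CPM in cold-ischemia grafts, and 414, 266 and 1136 CPM in naive lungs. High and low libraries occurred in the cold-ischemia and the naive group alike, and the ranges of the 3 groups overlapped.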
